A study of Homo sapiens with 5 samples.

Results

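This account covers 34 genes whose proteins are longer than 3000 residues, read from a gene count table of HL60 cells with 51055 gene IDs. The 34 symbols were given by name, and each was found once in the table. They were proposed because PRKDC and UBR4 stood higher in both transduced groups than in untransduced cells while short ribosomal protein mRNAs stood lower. The comparisons with untransduced cells therefore chose the set, and they are described here without a test. The comparison of the 2 transduced groups was no part of that stated reason and was tested, although earlier results of these data were known when the members were chosen. The longest annotated protein of each gene ran from 3056 residues (ATM) to 8797 (SYNE1), with a median of 4241. The set is a selection: 124 other genes of the table also encode a protein longer than 3000 residues. On either side of the length limit, CHD7 (2997 residues) had log2 ratios to untransduced cells of 0.45 in SCR and 0.96 in ZIP, and FRYL (3013 residues, not a member) had 0.53 and 0.61. ATM, the shortest member, had 0.34 and 0.47.

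HL60 is an established human promyelocytic leukaemia line, a culture of immature granulocyte precursors. Untransduced cells gave 1 library (UNT). Cells with a control lentivector (SCR, called scramble in one place of the labels and an empty vector in another) gave 2 libraries. Cells with the miRZip-378a-3p lentivector (ZIP), which encodes a hairpin antisense to the microRNA miR-378a-3p, gave 2 more. The multiplicity of infection was 20, polybrene was used at 8 µg/mL, and the labels place puromycin selection at 2 µg/mL between day 3 and day 8. Both transduced groups therefore differ from UNT in carrying a vector, in the infection procedure and in the drug, and these cannot be told apart here. Nothing in the labels says whether the 2 libraries of a group are separate cultures. The p-values then take in only the spread from library to library, which may be technical.

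Giant proteins are built from long arrays of repeats that act as scaffolds, tracks or motors, and their mRNAs carry many exons. Kinases of the PIKK family such as DNA-PKcs and ATM respond to broken DNA. The giant ubiquitin ligases mark proteins for degradation, dyneins and spectraplakins move cargo and link cytoskeletal fibres, VPS13 proteins carry lipids between membranes, and KMT2 proteins methylate histone H3 at enhancers and promoters. At the other end of the length scale stand the cytosolic ribosomal proteins, small basic proteins made from short, abundant mRNAs.

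The contrast in length is shown by the coding sequence of RPL41, the shortest ribosomal protein, which is printed whole, beside the first stretch of UBR4 of the same length. RPL41 (chromosome 12) has 78 coding bases and 25 residues. UBR4 (chromosome 1) has 15552 coding bases and 5183 residues. Both are from the GENCODE release 29 transcripts, with the start codon and, in RPL41, the stop codon in capitals.

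RPL41: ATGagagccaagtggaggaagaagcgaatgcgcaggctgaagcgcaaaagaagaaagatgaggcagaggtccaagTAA
UBR4, first 78 bases: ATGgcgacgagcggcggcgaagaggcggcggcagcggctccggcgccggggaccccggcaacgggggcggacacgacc

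Upstream windows of 3 members are printed because these members moved in different ways: UBR4 and DYNC1H1 were higher in SCR than in UNT and higher again in ZIP, and RNF213 was highest in SCR. Each window is the 250 bases before the annotated start, in the RefSeq table for GRCh38.p14. Capitals mark a match, on either strand, to a GC box (GGGCGG), an ETS core (CCGGAAG), the palindromic NRF1 site or the interferon-stimulated response element. Neighbouring GC box matches can share a base, and in the windows printed no 2 different motifs overlap. UBR4 is at chr1:19210267-19210516 (minus strand), DYNC1H1 at chr14:101964323-101964572 (plus strand) and RNF213 at chr17:80260602-80260851 (plus strand).

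UBR4: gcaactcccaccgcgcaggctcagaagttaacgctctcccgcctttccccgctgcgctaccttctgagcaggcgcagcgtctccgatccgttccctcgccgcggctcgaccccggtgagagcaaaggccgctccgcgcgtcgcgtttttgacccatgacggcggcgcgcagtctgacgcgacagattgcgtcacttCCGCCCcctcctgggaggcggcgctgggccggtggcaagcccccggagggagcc
DYNC1H1: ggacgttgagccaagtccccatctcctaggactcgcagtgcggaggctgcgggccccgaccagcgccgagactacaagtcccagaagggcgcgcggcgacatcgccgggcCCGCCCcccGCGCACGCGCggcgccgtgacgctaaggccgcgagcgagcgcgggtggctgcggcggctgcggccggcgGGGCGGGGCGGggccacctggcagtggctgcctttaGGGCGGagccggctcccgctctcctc
RNF213: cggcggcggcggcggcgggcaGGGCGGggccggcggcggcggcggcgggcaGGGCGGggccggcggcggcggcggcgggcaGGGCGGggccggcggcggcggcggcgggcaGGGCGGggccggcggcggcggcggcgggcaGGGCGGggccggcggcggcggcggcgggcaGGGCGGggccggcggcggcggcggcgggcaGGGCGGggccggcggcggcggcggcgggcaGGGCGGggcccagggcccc

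UBR4 held 1 GC box match, DYNC1H1 held 4 with 1 NRF1 match, and RNF213 held 8 within a repeated GC-rich unit. The windows had a GC content of 70.0%, 76.8% and 96.4%. RefSeq windows were found for 30 of the 34 members, 47 windows in all, and none for PRKDC, TRRAP, VPS13B and WDFY3. A GC box was in 51.1% of the 47 windows and in 42.6% of the 35116 windows of all genes. The ETS core was in 12.8% against 8.52%, the NRF1 site in 8.51% against 5.07% and the interferon element in 2.13% against 3.02%. Median GC content was 65.6% in the member windows and 58.0% in all windows. These matches describe letters in a window and say nothing of whether a factor binds there.

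The libraries held 24406580 to 30925067 counts, and protein-coding genes took 96.6% to 97.1% of them, although the labels name a small RNA kit. All 34 members passed the filters on low counts, and 25 had at least 1000 counts in every library. The promyelocyte markers MPO, ELANE, PRTN3, AZU1, CTSG and CD33 were detected in all 5 libraries. The granule genes among them differed between groups, while CD33 overlapped between SCR and ZIP (79.8 and 84.1 CPM, which are counts scaled to the TMM-adjusted library size, and 82.5 and 83.6). MPO, the granule peroxidase, stood at 19020 CPM in UNT, 9967 and 9992 in SCR, and 17049 and 16583 in ZIP. PRTN3, the granule protease with the largest distance of SCR from UNT, went from 3194 CPM in UNT to 821 and 833 in SCR, and was at 3283 and 3182 in ZIP. CTSG, cathepsin G, had 205 in UNT, 76.4 and 76.3 in SCR, and 346 and 342 in ZIP. The part of these shifts in the results for the giant genes was not tested. Among markers of other lineages, HBB and MS4A1 had 0 counts everywhere, and no library had more than 20 counts of CD3E, EPCAM, COL1A1 or PF4. In bulk libraries, fewer cells with a transcript and less of it per cell cannot be told apart.

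Against untransduced cells the giant genes lay higher in both transduced groups. UNT was the lowest of the 5 libraries for 32 of the 34, the exceptions being DST and VPS13A. In SCR, 24 members (70.6%) were at least 1.5-fold above UNT in both libraries and 0 were as far below. The background over all 15832 genes was 23% above and 14.2% below. In ZIP, 30 members (88.2%) were at least 1.5-fold above UNT in both libraries and 0 below, with a background of 16.9% above and 12.6% below. By any amount, 32 members lay above UNT in both SCR libraries and 0 below (background 46.6% and 45.7%), and 34 lay above and 0 below in both ZIP libraries (background 44.7% and 45.9%). Nothing is read from these counts, since these contrasts chose the set and the SCR and ZIP ratios share the UNT library. Their size is the description: the median member was 1.79-fold above UNT in SCR (log2 0.84) and 2.38-fold above in ZIP (log2 1.25). The corresponding log2 medians over all genes were -0.004 and -0.009. With PRKDC and UBR4 left out, the medians of the other 32 were 0.84 and 1.21.

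**Figure D1:**
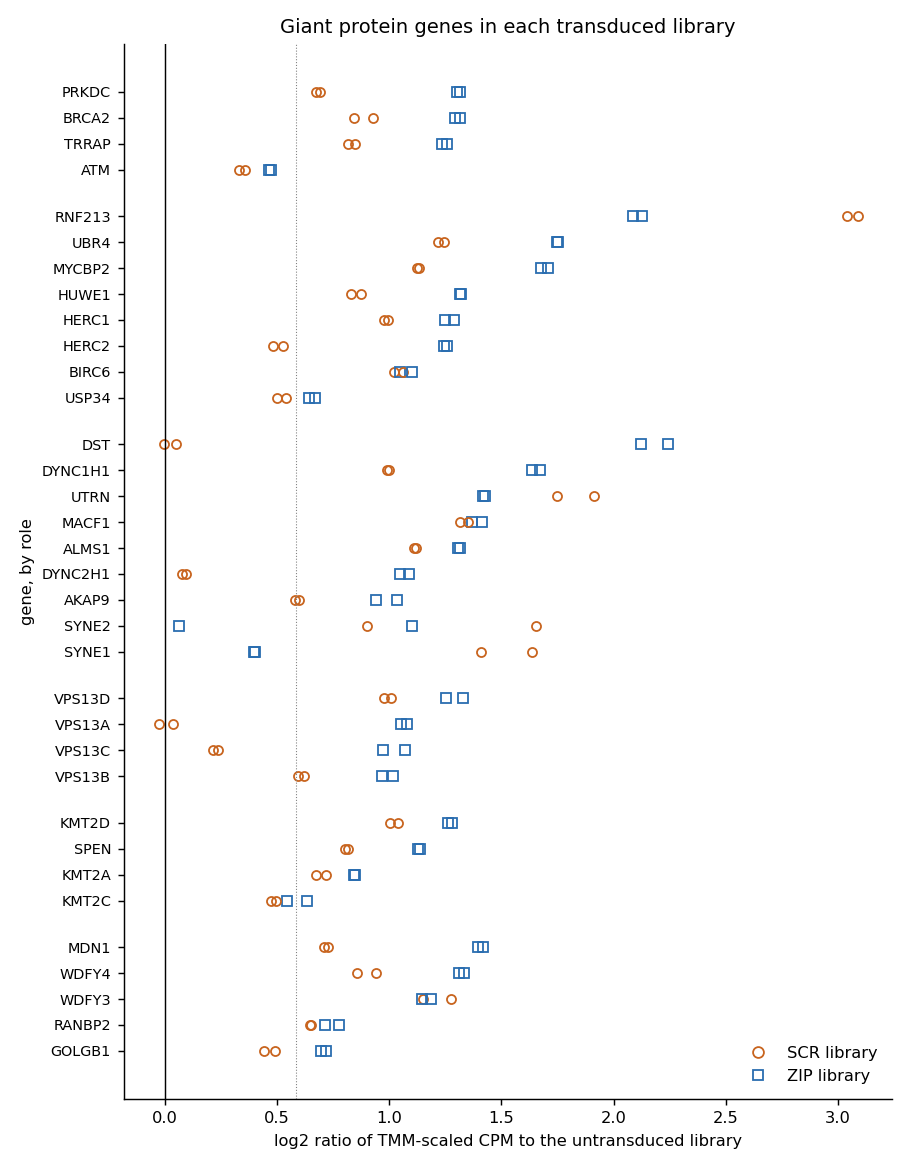
Log2 ratio of TMM-scaled CPM to the untransduced library (x axis) for each of the 34 genes (y axis, grouped by role), with circles for the 2 SCR libraries and squares for the 2 ZIP libraries. The solid line marks equality with UNT and the dotted line 1.5-fold. Most squares lie to the right of the circles, while RNF213, UTRN and SYNE1 have the reverse order.

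PRKDC and UBR4, the genes named in the choice of the set, were among the most abundant. PRKDC (ENSG00000253729, chromosome 8, 47773108 to 47960183, minus strand, 86 exons in the annotated transcript) encodes DNA-PKcs, the kinase that Ku recruits to broken DNA ends for joining. It had 672 CPM in UNT, 1071 and 1084 in SCR, and 1655 and 1670 in ZIP. The 3 groups did not overlap. In ZIP against SCR it rose by 0.63 ± 0.02 (SE) on the log2 scale, and edgeR's quasi-likelihood test gave a Benjamini-Hochberg adjusted p of 4.5e-17. UBR4 (ENSG00000127481, chromosome 1, 19074506 to 19210276, minus strand, 106 exons) encodes a ubiquitin ligase that recognises N-terminal degradation signals. It had 178 CPM in UNT, 413 and 421 in SCR, and 597 and 599 in ZIP, again without overlap. Its log2 fold change in ZIP against SCR was 0.52 ± 0.02 (SE), with an adjusted p of 1.2e-13 in the same edgeR test.

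In the tested comparison, most giant genes were higher in ZIP than in SCR. Of the 34, 27 (79.4%) rose, 3 (8.82%) fell and 4 did not pass the test (edgeR quasi-likelihood, adjusted p under 0.05). The background was wide: of the 14643 genes tested 65.4% passed, 32.2% as rises and 33.2% as falls. Member medians lay at a log2 fold change of 0.31, with the middle of the list from 0.11 to 0.55, against -0.002 over all genes. Both ZIP libraries lay above both SCR libraries for 28 members and below for 3, where the background was 40.1% and 40.9%. Rises were mostly modest: 8 of the 27 were under 1.2-fold and 8 were at least 1.5-fold. Without PRKDC and UBR4, 25 of 32 rose and 3 fell. Scaling by library totals alone lowers the median ZIP over SCR change of all genes by 0.06, to -0.06, and then 25 members rose and 3 fell. The order UNT, then both SCR, then both ZIP libraries held for 26 members, and the other 8 were RNF213, UTRN, SYNE1, SYNE2, WDFY3, BIRC6, DST and VPS13A. The step up from UNT belongs to the contrasts that chose the set. How many of all genes have this order was not counted, so the 26 are a description only. No member had both SCR libraries on one side of UNT and both ZIP libraries on the other with a called difference. Nothing is read from that, since the contrasts with UNT chose the set. Over all genes tested, 8.79% were called with SCR below UNT and ZIP above, and 9.23% with SCR above and ZIP below.

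**Figure D2:**
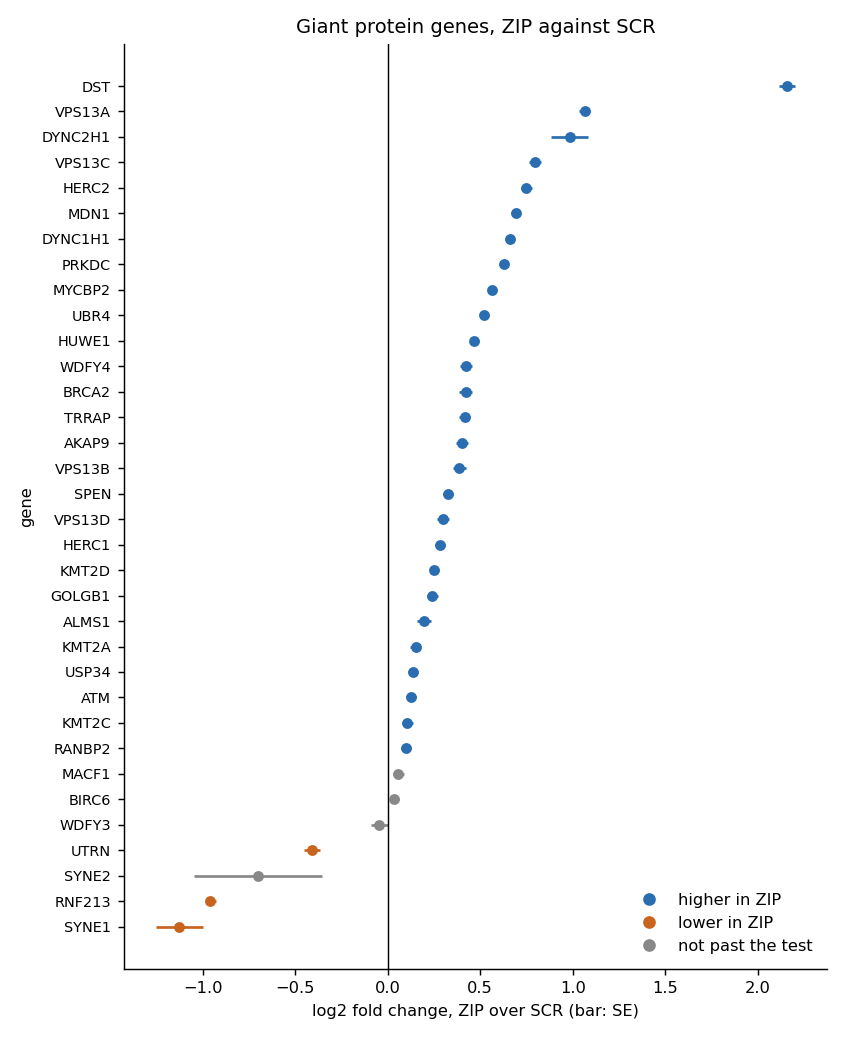
Log2 fold change of ZIP over SCR (x axis) for the 34 genes ordered by size (y axis). Bars are standard errors derived from edgeR's fold change and F statistic, n = 2 libraries per group. Blue points rose, orange points fell and grey points did not pass the test, with DST at 2.16 at one end and SYNE1 at -1.13 at the other.

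All 4 genes of the PIKK family and DNA repair group rose in ZIP against SCR. Counts by role here and below stand beside 32.2% rises and 33.2% falls over all genes tested. Beside PRKDC, these were BRCA2, a mediator of homologous recombination, TRRAP, the kinase-dead scaffold of histone acetyltransferase complexes, and ATM, a kinase activated at double-strand breaks. BRCA2 stood at 38.9 CPM in UNT, 69.7 and 73.9 in SCR, and 95.4 and 96.9 in ZIP, a log2 change of 0.42 ± 0.03 (SE) between the last 2 groups. TRRAP had 92.3 CPM in UNT, 162 and 166 in SCR, and 217 and 221 in ZIP, a log2 change of 0.42 ± 0.03. Both thus repeated the stepwise order of PRKDC. ATM moved least, from 183 CPM in UNT to 230.4 and 235 in SCR and 253 and 254 in ZIP. The log2 fold change of ATM in ZIP against SCR was 0.12 ± 0.03 (SE; edgeR adjusted p = 4.7e-04). The opposite-strand neighbours NPAT and SMURF1 had counts up to 25.3% of those of ATM and 22.8% of those of TRRAP. The strand setting of the counting is unknown here, so reads of such pairs may be shared.

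Related kinases and partners of this group did not share 1 direction. ATR, the kinase of stalled replication forks, had 70.0 CPM in UNT, 67.5 and 66.6 in SCR, and 113 and 116 in ZIP. MTOR, the growth kinase, had 83.2 in UNT, 169.6 and 161 in SCR, and 146 and 144 in ZIP. In ZIP against SCR the log2 change was 0.77 ± 0.03 (SE) for ATR, 0.26 ± 0.03 for SMG1, the kinase of nonsense-mediated decay, and -0.19 ± 0.03 for MTOR, and each passed the edgeR test. Of 13 tested partners of the repair group, 8 rose and 3 fell, beside 32.2% and 33.2% of all genes tested. NBN, of the MRN complex that activates ATM, changed by 0.43 ± 0.03, and XRCC5, the Ku80 partner of DNA-PKcs, by -0.24 ± 0.02 (SE, log2). XRCC5 stood at 505 CPM in UNT, 694 and 683 in SCR, and 589 and 576 in ZIP, so its highest group was SCR while that of PRKDC was ZIP.

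The ubiquitin group held 8 genes, of which 6 rose, 1 fell and 1 did not pass. HERC2 (chromosome 15, 28111040 to 28322152), a HECT ligase with a part in the DNA damage response, had 85.1 CPM in UNT, 119 and 122 in SCR, and 203 and 202 in ZIP. The rise from SCR to ZIP was, as a log2 fold change, 0.75 ± 0.03 (SE; edgeR adjusted p = 8.2e-15). HERC2 has partial copies elsewhere in the genome, and the 3 HERC2P genes of the table held 344 to 541 counts per library against 2040 to 6222 for HERC2. MYCBP2, a ligase of the RCR class, stood at 148 CPM in UNT, 323 and 325 in SCR, and 474 and 484 in ZIP (log2 change 0.57 ± 0.03). HUWE1, a HECT ligase with MYC among its substrates, stood at 269 CPM in UNT, 478 and 494 in SCR, and 672 and 670.5 in ZIP (0.47 ± 0.02). These 3, like UBR4, were stepwise, with no overlap of groups. Smaller rises were those of HERC1, another HECT ligase (0.28 ± 0.03), and of the deubiquitinase USP34 (0.13 ± 0.03). AHSA2P, which overlaps USP34 on the opposite strand, had counts up to 33.2% of those of USP34, so reads may be shared. BIRC6, an inhibitor of apoptosis that conjugates ubiquitin, had 125 CPM in UNT, 253 and 260.2 in SCR, and 258 and 268 in ZIP. The SCR and ZIP libraries of BIRC6 overlapped, and the change of 0.03 ± 0.03 did not pass (edgeR adjusted p = 0.30).

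RNF213 (ENSG00000173821, chromosome 17, 80260866 to 80398786, plus strand), an interferon-inducible RING ligase with an ATPase motor, had the widest spread of the ubiquitin group. It stood at 15.5 CPM in UNT, 127 and 132 in SCR, and 65.8 and 67.5 in ZIP. The 3 groups lay far apart, with SCR highest: 8.36-fold above UNT, against 4.31-fold for ZIP. Between ZIP and SCR it fell by 0.96 ± 0.03 (SE) on the log2 scale (edgeR adjusted p = 7.6e-16). Of 6 ubiquitin partners, 5 rose, beside 32.2% of all genes tested. Among the 5 were UBE2L3, an E2 enzyme used by HECT and RBR ligases (0.30 ± 0.03), and UBE3A, a ligase that HERC2 binds (0.27 ± 0.03).

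Motors, linkers, centrosome and nuclear envelope genes were the most divided group: of 9, 5 rose, 2 fell and 2 did not pass. DST (ENSG00000151914, chromosome 6, 56457987 to 56954628, minus strand) encodes dystonin, a spectraplakin that ties intermediate filaments, actin and microtubules together. It had 28.0 CPM in UNT, 27.9 and 28.97 in SCR, and 122 and 133 in ZIP. SCR libraries lay on both sides of UNT, and only the ZIP libraries stood apart. The log2 fold change of ZIP over SCR was 2.16 ± 0.04 (SE), the largest of the 34 (edgeR adjusted p = 3.6e-19). DYNC1H1, the heavy chain of cytoplasmic dynein 1, had 182 CPM in UNT, 361 and 363 in SCR, and 565 and 579 in ZIP (log2 change 0.66 ± 0.02). DYNC2H1, the heavy chain of the ciliary dynein 2, had 5.80 CPM in UNT, 6.19 and 6.10 in SCR, and 12.0 and 12.3 in ZIP. A log2 change of 0.98 ± 0.10 (SE) passed (edgeR adjusted p = 2.2e-08), and like DST it was near UNT in SCR. AKAP9, which anchors protein kinase A at the centrosome and Golgi, changed by 0.40 ± 0.03, and ALMS1, a centriole protein, by 0.20 ± 0.04 (SE, log2).

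UTRN, SYNE1 and SYNE2 were higher in SCR than in UNT without a further step in ZIP. UTRN, the dystrophin relative utrophin, had 22.6 CPM in UNT, 76.1 and 85.2 in SCR, and 60.5 and 60.8 in ZIP. It fell in ZIP against SCR by 0.41 ± 0.04 (SE) on the log2 scale (edgeR adjusted p = 7.1e-08). SYNE1, a nesprin that links the nuclear envelope to actin, had 2.88 CPM in UNT, 7.64 and 8.94 in SCR, and 3.79 and 3.80 in ZIP. It fell by 1.13 ± 0.13 (SE) on the log2 scale (edgeR adjusted p = 1.3e-07). Its relative SYNE2 had 12 counts in UNT, 40 and 24 in SCR, and 16 and 26 in ZIP, and its groups overlapped. The log2 change of SYNE2, -0.70 ± 0.34 (SE), had an edgeR adjusted p of 0.082. That p was 0.0143 without SCR replicate 2 and 0.0156 without ZIP replicate 2. MACF1, the spectraplakin that crosslinks actin and microtubules, stood at 99.0 CPM in UNT, 246 and 252 in SCR, and 256 and 263 in ZIP. The SCR and ZIP libraries did not overlap, but the log2 change of 0.06 ± 0.03 did not pass (edgeR adjusted p = 0.0769). Of 14 partners of this group, 5 rose and 7 fell, beside 32.2% and 33.2% of all genes tested. SUN1, the inner membrane anchor of nesprins, had 38.1 CPM in UNT, 45.2 and 44.4 in SCR, and 20.5 and 22.4 in ZIP. DYNLT1, a dynein light chain, had 10.1 in UNT, 14.7 and 14.6 in SCR, and 6.46 and 5.95 in ZIP.

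All 4 VPS13 genes, whose rod-shaped proteins bridge membranes at contact sites and transfer lipids, rose in ZIP against SCR. VPS13A (ENSG00000197969, chromosome 9, 77177353 to 77421541, plus strand) had 90.6 CPM in UNT, 88.8 and 92.7 in SCR, and 188 and 192 in ZIP. Like DST, it did not separate SCR from UNT, and its log2 change of 1.06 ± 0.03 (SE) in ZIP against SCR had an edgeR adjusted p of 5.6e-17. VPS13C, found at lipid droplets and late endosomes, had 80.7 CPM in UNT, 94.97 and 93.7 in SCR, and 158 and 169 in ZIP. VPS13C rose by 0.79 ± 0.03 on the log2 scale (SE; edgeR adjusted p = 2.0e-14). VPS13B, of the Golgi, and VPS13D, of mitochondria, had smaller changes of 0.39 ± 0.03 and 0.30 ± 0.03. VPS13D had 43.4 CPM in UNT, 87.4 and 85.3 in SCR, and 103 and 109 in ZIP, so that most of its distance from UNT was already present in SCR. COX6C, which overlaps VPS13B on the opposite strand, had up to 391% of the counts of VPS13B. XK, the membrane protein that binds VPS13A, had 3.30 CPM in UNT, 2.32 and 2.14 in SCR, and 4.70 and 4.71 in ZIP. XK rose by 1.08 ± 0.16 (SE, log2), and the rises of the related lipid transfer genes ATG2A and ATG2B also passed the edgeR test, at 0.53 ± 0.04 for ATG2B.

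The 4 chromatin and transcription genes rose by small amounts in ZIP against SCR, after larger steps from UNT to SCR. KMT2D, which methylates histone H3 at enhancers, had 175 CPM in UNT, 352 and 360.1 in SCR, and 426 and 421 in ZIP (log2 change 0.25 ± 0.03). SPEN, a corepressor that binds RBPJ, had 140.03 CPM in UNT, 244 and 246 in SCR, and 308 and 306 in ZIP (0.33 ± 0.03). KMT2A, the MLL1 methyltransferase, had 91.3 CPM in UNT, 150.2 and 146 in SCR, and 164 in both ZIP libraries (0.15 ± 0.03). KMT2C, the partner enzyme of KMT2D at enhancers, had 106 CPM in UNT, 148 and 150 in SCR, and 155 and 165 in ZIP. The change of 0.11 ± 0.03 (SE) passed (edgeR adjusted p = 0.0055). Without ZIP replicate 2 that p was 0.0816, and with scaling by library totals it was 0.205. Of 13 partners 6 rose and 4 fell, beside 32.2% and 33.2% of all genes tested. WDR5, a subunit shared by all KMT2 complexes, stood at 141 CPM in UNT, 101 in both SCR libraries, and 150 and 146 in ZIP. HCFC1, a host factor bound by KMT2A, had a log2 change of 0.50 ± 0.03, and its protein of 2080 residues is itself long.

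Among ribosome assembly, nuclear pore, Golgi and autophagy genes, 4 of 5 rose. MDN1 (ENSG00000112159, chromosome 6, 89642499 to 89819723, minus strand) encodes midasin, the ATPase that strips assembly factors from the precursor of the large ribosomal subunit. It had 213 CPM in UNT, 349 and 353 in SCR, and 562 and 569.8 in ZIP, with no overlap. Between SCR and ZIP the log2 fold change was 0.69 ± 0.02 (SE; edgeR adjusted p = 1.9e-15). Most ribosomal protein mRNAs, in contrast, had the reverse order of groups. WDFY4, a BEACH protein used in antigen cross-presentation, had 69.4 CPM in UNT, 133 and 126 in SCR, and 175 and 172 in ZIP (log2 change 0.42 ± 0.03). GOLGB1, the Golgi tether giantin, changed by 0.24 ± 0.03 and RANBP2, the nucleoporin of the cytoplasmic filaments, by 0.10 ± 0.03. The call for RANBP2 was lost with scaling by library totals (edgeR adjusted p = 0.252). The RGPD genes, copies of RANBP2, held 17 to 37 counts together, against 3872 to 8112 for RANBP2. WDFY3, which targets aggregates to autophagy, had 21.8 CPM in UNT, 48.4 and 52.8 in SCR, and 49.7 and 48.3 in ZIP, and its change of -0.05 ± 0.05 did not pass (edgeR adjusted p = 0.42). All 8 tested partners of this group rose, beside 32.2% of all genes tested. These included TEX10 (0.60 ± 0.03) and LAS1L (0.31 ± 0.03), of the complex that works with midasin.

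Levels between genes were compared per kilobase of transcript. PRKDC was first in every library, at 49.7 CPM per kb in UNT, 79.3 and 80.3 in SCR, and 122 and 124 in ZIP. HUWE1 was next in every library, at 18.2 per kb in UNT, 32.3 and 33.4 in SCR, and 45.4 and 45.3 in ZIP. Between them lay a gap wider than the spread within either group. UBR4 moved from place 8 in UNT (11.2 per kb) to place 3 in SCR (26.0 and 26.4) and ZIP (37.5 and 37.7), and MYCBP2 from place 9 to place 4. ATM went from place 4 (13.9 per kb) to place 11 (19.2 and 19.3 in ZIP), although its own level was not lower. Neighbours often lay closer than their libraries: in ZIP, USP34 (22.7 and 23.2 per kb) and RANBP2 (22.6 and 23.6) overlapped. DYNC2H1, SYNE1 and SYNE2 were last in all 5 libraries, SYNE2 at 0.0229 to 0.0722 CPM per kb.

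Set beside them, most ribosomal protein mRNAs lay on the other side of UNT. RPL41 had 370 CPM in UNT, 229.7 and 228 in SCR, and 185 and 182 in ZIP. RPL39, with 51 residues, had 759.9 in UNT, 481 and 455 in SCR, and 395 and 385 in ZIP. RPS29, with 87 residues, had 511 in UNT, 287 and 290.5 in SCR, and 278 and 255 in ZIP. All 3 were thus highest in UNT. RPS27 was low in the table, at 16.1 CPM in UNT, 11.9 and 14.7 in SCR, and 7.97 and 8.27 in ZIP. Ribosomal protein genes have many processed pseudogenes, with which reads may be shared. Of 74 cytosolic ribosomal protein genes tested, 55 fell and 7 rose in ZIP against SCR, with a median log2 change of -0.16 (edgeR quasi-likelihood). Against UNT, 31 of 74 were at least 1.5-fold lower in SCR and 63 in ZIP, with medians of -0.58 and -0.76. Lower short ribosomal protein mRNAs against UNT were part of the reason for the set, so nothing is read from these counts. Of 697 other genes for proteins of up to 150 residues, 138 were at least 1.5-fold lower and 95 higher in SCR, and 124 lower and 44 higher in ZIP. In percent these were 19.8% lower and 13.6% higher in SCR, and 17.8% and 6.31% in ZIP, where all genes had 14.2% and 23% in SCR and 12.6% and 16.9% in ZIP.

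The members were at the end of a gradient that ran over all protein-coding genes. Median log2 ratios of SCR to UNT were -0.28 for proteins of up to 150 residues, -0.15 from 150 to 300, -0.05 from 300 to 600, 0.15 from 600 to 1200, 0.39 from 1200 to 2000 and 0.55 from 2000 to 3000. For ZIP to UNT the same bins gave -0.29, -0.19, -0.04, 0.16, 0.41 and 0.67. The giants outside the set (77 genes) followed at 0.76 in SCR and 0.89 in ZIP, and the members at 0.84 and 1.25. Between ZIP and SCR the bins were nearly flat, from -0.04 to 0.07. The other giants lay at 0.05, or at 0.10 for the 31 with a mean of at least 20 CPM, and the members at 0.31. The distance between the members and the proteins of up to 150 residues was 1.12 in SCR against UNT, 1.53 in ZIP against UNT and 0.34 in ZIP against SCR (log2).

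**Figure D3:**
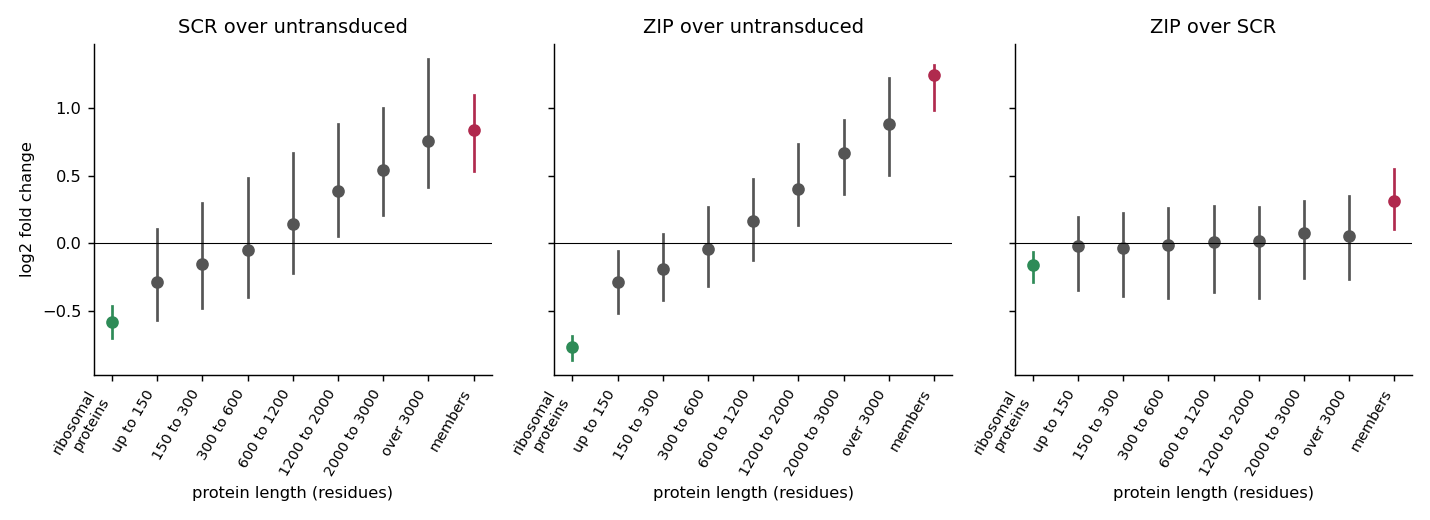
Median log2 fold change (points) with the middle of each distribution, from the lower to the upper quartile (bars), for protein-coding genes binned by protein length (x axis), with ribosomal proteins at the left in green and the 34 members at the right in red. The bin over 3000 holds giants outside the set. Medians climb with length against UNT in both groups, and in ZIP over SCR the bins lie near 0 with the members at 0.31.

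Across 11912 protein-coding genes outside the set and the ribosomal proteins, the rank correlation of protein length with the log2 ratio was 0.25 in SCR to UNT. It was 0.37 in ZIP to UNT (11880 genes) and 0.04 in ZIP to SCR (12014 genes). Among the 34 members alone it was 0.40, 0.30 and -0.07. These are descriptions across genes that share the same libraries, and genes are not replicates. Base composition of the transcript had rank correlations of 0.01 with SCR to UNT and -0.08 with ZIP to UNT over all these genes. Among the members, GC content had rank correlations of 0.44 and 0.42 with the same ratios, larger than those of protein length. Against UNT, the median for proteins over 2000 residues was above that for proteins of up to 300 in each of 6 bins of GC content. In the bin from 40% to 45%, for example, the medians in ZIP to UNT were 0.69 and -0.21. Between ZIP and SCR the bin over 60% had the reverse order, with -0.15 for the long and -0.04 for the short proteins. What sets the gradient with length was not tested.

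**Figure D4:**
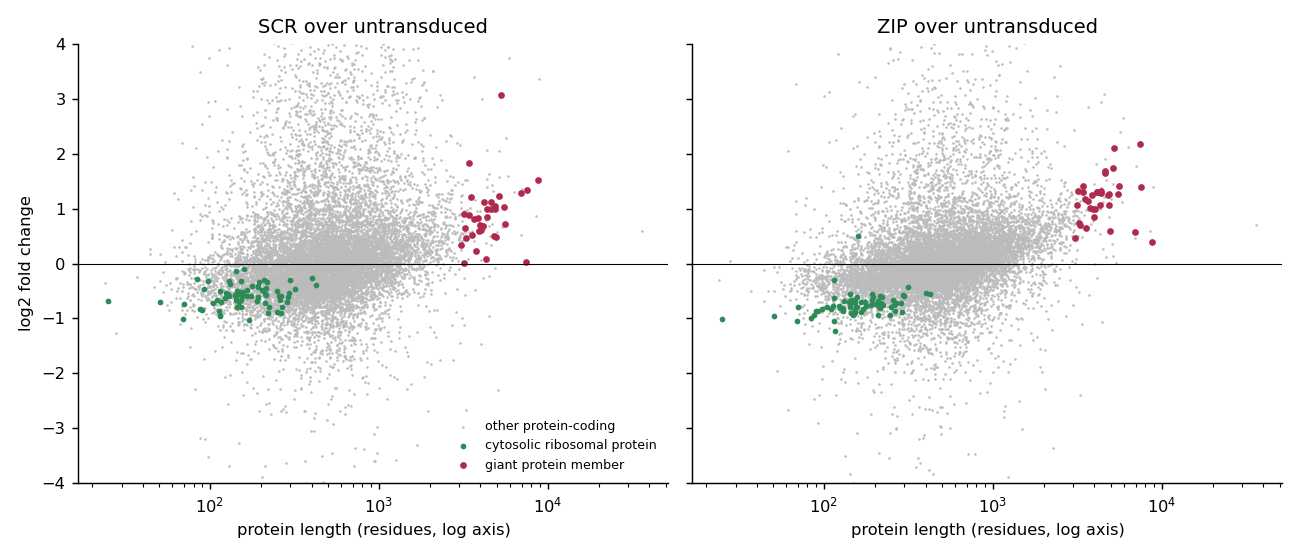
Log2 ratio to the untransduced library (y axis) against protein length in residues (x axis, log scale) for protein-coding genes in SCR (left) and ZIP (right), with members in red and ribosomal proteins in green. Members lie at or above 0 and ribosomal proteins mostly below it. For 282 genes the value is beyond 4 in size in either panel, and that point is not shown there.

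The members are also alike in structure beyond protein length. Their annotated transcripts had 10079 to 27748 bases and 15 to 146 exons (median 73, against 9 over 12101 other protein-coding genes tested). The genes spanned 40.8 to 864 kb, with a median of 218 kb against 32.5 kb. Transcript GC content was 36.3% to 59.1%, with a median of 44.7% against 49.2%. They lie on 16 chromosomes.

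As a share of all counts, the members held 0.362% in UNT (exact 95% interval 0.359% to 0.364%), 0.683% and 0.691% in SCR, and 0.878% and 0.893% in ZIP. The groups did not overlap, and intervals cover counting error only. The 124 giants outside the set held 0.270% in UNT, 0.628% and 0.634% in SCR, and 0.573% and 0.583% in ZIP, so that their share was highest in SCR. The lead of SCR over ZIP rests on AHNAK, which had 26150 and 27107 counts in SCR. AHNAK had 1862 counts in UNT, and 15054 and 11785 in ZIP. Over the same libraries the 75 ribosomal protein genes held 8.24% in UNT, 6.06% and 6.08% in SCR, and 5.12% and 4.98% in ZIP. Genes of the mitochondrial genome held 8.05% in UNT, 4.40% and 4.58% in SCR, and 5.999% and 6.07% in ZIP. The part that these abundant classes play in the shares of the giant genes was not tested. Of nuclear protein-coding counts, which leave out the mitochondrial genome but hold the ribosomal protein genes, the members held 0.404% in UNT against means of 0.738% in SCR and 0.968% in ZIP.

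**Figure D5:**
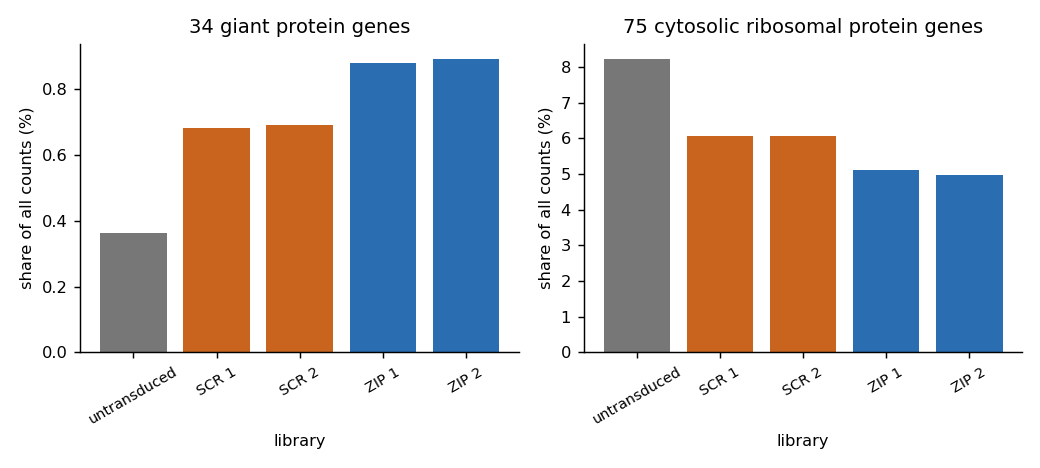
Share of all counts (y axis, percent, from 0) held by the 34 giant protein genes (left) and by 75 cytosolic ribosomal protein genes (right) in each of the 5 libraries. The giant share steps up from 0.362% in UNT to 0.893% in ZIP 2 while the ribosomal share steps down from 8.24% to 4.98%.

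Genes for the giants outside the set were divided in ZIP against SCR. Of 74 tested, 26 (35.1%) rose and 22 (29.7%) fell, close to the background, with a median log2 change of 0.05 (edgeR quasi-likelihood). Of the 31 with a mean of at least 20 CPM, 18 rose and 9 fell, with a median log2 change of 0.10. That limit was chosen after seeing the data. The 32.2% of rises over all genes tested takes in genes of lower counts, and no background at 20 CPM was made. Against UNT, 40 of 77 were at least 1.5-fold higher and 7 lower in SCR, and 51 higher and 3 lower in ZIP. Large changes in both directions were among them. FAT1, a giant cadherin, had 29.4 CPM in UNT, 36.0 and 38.0 in SCR, and 110 in both ZIP libraries, and it rose in ZIP against SCR by 1.57 ± 0.04 (SE, log2). MAP1A, a microtubule-associated protein, had 14 counts in UNT, 5 and 6 in SCR, and 96 and 77 in ZIP. VCAN, the matrix proteoglycan versican, had 2 counts in UNT, 529 and 545 in SCR, and 5 and 2 in ZIP, so that it was abundant only in SCR. LRP1, the endocytic receptor, had 0.959 CPM in UNT, 41.0 and 44.9 in SCR, and 7.90 and 8.47 in ZIP, and it fell by 2.39 ± 0.07 (SE, log2). PRUNE2 and CELSR1 also fell, by 1.23 and 1.22 (log2).

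The partner proteins of the members are mostly of ordinary length, and their mRNAs lay near UNT in both transduced groups. Of 57 partner genes tested, 35 (61.4%) rose and 14 (24.6%) fell in ZIP against SCR, with a median log2 change of 0.19 (edgeR quasi-likelihood), beside 32.2% and 33.2% of all genes tested. Against UNT, 4 (7.02%) were at least 1.5-fold higher and 3 (5.26%) lower in SCR, beside 23% and 14.2% of all genes. In ZIP, 5 (8.77%) were higher and 2 (3.51%) lower, beside 16.9% and 12.6%. Their median log2 ratio to UNT was -0.02 in SCR and 0.05 in ZIP, where that of the members was 0.84 and 1.25.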

How the data were processed

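Gene expression was measured by sequencing in 5 HL60 libraries: 1 untransduced (UNT), 2 SCR and 2 ZIP, grouped by title. The authors deposited 1 table of raw counts per Ensembl gene, without normalization. Bowtie2 and featureCounts are named in the submitters' processing notes, while the series' design text names CASAVA 1.8.2 and TopHat 2. The sources used here do not say which of these made the counts, nor the genome build or the use of strand. Of 51055 gene IDs, 44305 were in GENCODE release 29 (GRCh38), which gave symbols, coordinates and protein lengths, the longest coding sequence in codons. RefSeq protein lengths had been planned, but no RefSeq protein table was used here. In the table, 0 rows named no gene and 0 columns belonged to other samples.

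The tests ran in edgeR 4.0.16 (R 4.3.3, limma 3.58.1) after filterByExpr with a minimum count of 10 and a minimum total of 15, and TMM scaling. ZIP was tested against SCR on those 4 libraries with the edgeR quasi-likelihood test (2 residual degrees of freedom) and Benjamini-Hochberg adjustment over 14643 genes at 0.05. Each SE was derived as the size of the log2 fold change divided by the square root of that test's F statistic. UNT is 1 library, so SCR and ZIP were set against it without a test, as log2 ratios of TMM-scaled CPM per library. A gene was counted as higher or lower where both libraries were at least 1.5-fold on the same side of UNT. Alternatives were DESeq2 1.42.0, other scalings and filters, a replicate block and leaving out each library. The ZIP and SCR test was tested on simulated data: of 191 genes with 2-fold changes among 14356, 91.6% were recovered with the right sign, with 7 false calls.

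The members and lists were chosen with earlier results of these data known. Named were PRKDC and UBR4, the 6 largest rises and up to 6 falls among members that passed (3 fell), up to 2 partners of smallest p per role, and the 5 largest rises and 5 largest falls of other giants whose mean reached 1 CPM in a group. RPL39, RPL41, RPS27 and RPS29 were named for their short length. Values of the other members are given so that each is accounted for. A few genes of the marker and gene lists are not reported here.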

Additional observations from a re-analysis of the deposited data

Results flagged for a closer look

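For 11 of the genes named in the text from outside the set, both SCR libraries lay on one side of UNT and both ZIP libraries on the other, and the difference between ZIP and SCR passed the edgeR quasi-likelihood test. No member did this, and nothing is read from that, since the contrasts with UNT chose the set. It was so for 14 of 57 partners tested and 6 of 74 other giants tested. Of all genes tested, 8.79% did so with SCR below and ZIP above, and 9.23% in reverse. Among the named other giants, log2 ZIP over SCR was 3.85 for MAP1A, 2.64 for ABCA13, 1.63 for TEX15 and 1.07 for TRIO, each lower in SCR than in UNT and higher in ZIP. TRIO and TEX15 stood at 34.2 and 17.9 CPM in UNT. TRIO had 35.7 and 36.5 CPM in ZIP, only slightly above the single UNT library. MAP1A was low, at 0.58 CPM in UNT and 0.20 and 0.23 in SCR. Among the named partners, the log2 difference was 1.08 for XK, 0.60 for TEX10, 0.55 for WDR5 and 0.31 for LAS1L, again lower in SCR and higher in ZIP. WDR5 was only slightly above UNT in ZIP, at 150 and 146 CPM against 141. It was -1.07 for SUN1 and -1.23 for DYNLT1, which were higher in SCR and lower in ZIP. The related kinase ATR had a log2 difference of 0.77, lower in SCR and higher in ZIP. SUN1 anchors nesprins, and SYNE1 was also lower in ZIP than in SCR, but in SYNE1 both groups lay above UNT.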

How the results depend on the processing

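Over 10 alternatives for each of the 34 members, 331 of 340 results kept their direction and side of the threshold, as did all 250 for the named genes outside the set. Direction turned in 3, none of them past the threshold: with library totals for BIRC6 (-0.025) and MACF1 (-0.0013), and for WDFY3 without single SCR libraries (-0.10 to 0.019). The side of the threshold changed for SYNE2, KMT2C and RANBP2. SYNE2 (adjusted p 0.082) passed with the replicate block (0.0397) and without SCR replicate 2 (0.0143) or ZIP replicate 2 (0.0156). KMT2C was lost with library totals (0.205) and without ZIP replicate 2 (0.0816), and RANBP2 with library totals (0.252). Library totals also reduced the smallest log2 rises, to 0.07 for ATM, 0.08 for USP34 and 0.09 for KMT2A. That scaling moved the median log2 ratio of SCR to UNT over all genes by about 0.11, to 0.106. It moved the members' median from 0.84 to 0.95 in SCR, and from 1.25 to 1.30 in ZIP. With a 2-fold limit, 10 members were higher in SCR than in UNT, instead of 24, beside 15.4% of all genes at 2-fold and 23% at 1.5-fold. The distance from members to proteins of up to 150 residues was 1.17 in SCR and 1.56 in ZIP among genes with a mean of at least 10 CPM. Leaving out each SCR library gave 1.11 to 1.13 (main value 1.12). Shares of nuclear protein-coding counts were 0.404%, 0.738% and 0.968% in UNT, SCR and ZIP, and shares without PRKDC and UBR4 were 0.280%, 0.533% and 0.662%. Among the 31 other giants with a mean of at least 20 CPM, a limit chosen after seeing the data, 18 rose and 9 fell. Without that limit 26 of 74 rose and 22 fell, so the balance of rises and falls depended on the CPM limit. The cause of this and of the other shifts was not tested. Replicate numbers link SCR and ZIP only by name: deviations of same-numbered libraries correlated at 0.036 over genes. With the number as a block, 27 members rose and 4 fell, 35 and 14 partners, and 27 and 22 other giants. UNT carries no pair, so no blocked value against it was made. SYNE2, with 12 to 40 counts, is limited by depth.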
